A study of Arabidopsis thaliana with 10 samples.

Results

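The genes described here are the core cell cycle genes of Arabidopsis thaliana, chosen by locus identifier under a rule that uses no measured value. The genes were nevertheless chosen with earlier results of these data known. They number 48 of the 33518 genes in the deposited tables, and all 48 have a row there. By role they are 10 D-type, 8 A-type and 9 B-type cyclins, 5 cyclin-dependent kinases (CDKs), 7 inhibitors of the KRP family and 2 of the SIAMESE family. The remaining 7 are the retinoblastoma homologue RBR1, 4 E2F transcription factors, the kinase WEE1 and KN (KNOLLE), the syntaxin of the dividing cell plate.

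Hypocotyls of seedlings raised for 4.5 days in darkness were sequenced in 5 groups of 2 libraries, 10 libraries in all, and every group carried 1 µM PAC (paclobutrazol), which blocks gibberellin synthesis. Wild-type Col-0 was given 10 µM GA3, an active gibberellin, or mock for 12 hours, either on PAC alone or on PAC with 2 µM PPZ (propiconazole), which blocks brassinosteroid synthesis. The fifth group was the mock-treated mutant bzr1-1D, also on PAC and PPZ, a dominant line in which BZR1, a transcription factor of the brassinosteroid pathway, is stabilized. Wild type without PAC and bzr1-1D with GA3 were not analysed here.

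In plants, D-type cyclins bind CDKA and act at the entry into the cycle, where the kinase phosphorylates RBR1 and releases E2F factors that switch on replication genes. A-type cyclins act in S phase and at entry into mitosis, and B-type cyclins work with the plant-specific CDKB kinases in G2 and mitosis. KRP and SIAMESE proteins bind and inhibit the kinases, and SIAMESE proteins favour endoreduplication, in which DNA is copied without division. Growth of the dark-grown hypocotyl is known to rest mainly on elongation of existing cells, with rounds of endoreduplication and few divisions.

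Promoter sequence was read for motifs that some of these genes share. The MSA element of G2 and M phase genes, bound by MYB3R factors, has the core AACGG. On either strand this core lay within 300 bases before the annotated start in 7 of 9 B-type cyclins, in KN and in WEE1, and in 23.5% of 26645 promoters of protein-coding genes of the tables. Among all 48 cell cycle genes 22 (45.8%) held it, with 5 of 7 KRP genes but 1 of 10 D-type cyclins and 1 of 5 kinases. The brassinosteroid response element of BZR1 (CGTGTG or CGTGCG) was found in 4 of the 48 promoters (8.33%), against 7.68% of all. The G-box CACGTG was found in 3 (6.25%), against 7.2%, and the E2F motif TTTCCCGC or TTTGGCGC in 2 (4.17%), against 1.08%. Motifs were searched as letters on both strands, and a match describes the letters alone. The G-box and brassinosteroid motifs can share bases with each other.

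The 4 promoters below are shown because their genes were higher with GA3 in both backgrounds and carry the core, and because they differ in what bzr1-1D did. CYCA1;1 and CYCB2;4 were also higher in both backgrounds and carry the core but are not shown. CYCB1;4, CYCD1;1, CDKB1;1 and CDKB2;1 were higher in both backgrounds without a core. CYCB1;1, CYCB1;3 and CYCB2;1, which the authors did not call, hold 3 cores each. Whether the core bears on the GA3 response was not tested. The 4 sequences were read from the RefSeq genome TAIR10.1 by the annotation of each locus, since the deposited tables hold no coordinates and name no build. They run 5′ to 3′ on the strand of the gene and end at the base before its start, and capitals mark the motifs named above. The B-type cyclin CYCB1;2 lies at chr5:1861704-1862003 on the minus strand with 4 cores, and CYCB2;2 at chr4:16901296-16901595 on the plus strand with 3. CYCB2;3 lies at chr1:7137829-7138128 on the minus strand with 3 cores and, 82 bases before its start, a G-box. KN lies at chr1:2711001-2711300 on the minus strand with 1 core 12 bases before its start and 1 brassinosteroid motif 141 bases before it.
CYCB1;2: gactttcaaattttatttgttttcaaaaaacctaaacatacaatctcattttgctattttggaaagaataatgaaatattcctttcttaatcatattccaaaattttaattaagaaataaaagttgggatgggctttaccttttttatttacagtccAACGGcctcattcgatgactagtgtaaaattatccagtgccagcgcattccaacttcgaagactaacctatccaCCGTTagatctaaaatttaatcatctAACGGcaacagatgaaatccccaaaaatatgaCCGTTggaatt
CYCB2;2: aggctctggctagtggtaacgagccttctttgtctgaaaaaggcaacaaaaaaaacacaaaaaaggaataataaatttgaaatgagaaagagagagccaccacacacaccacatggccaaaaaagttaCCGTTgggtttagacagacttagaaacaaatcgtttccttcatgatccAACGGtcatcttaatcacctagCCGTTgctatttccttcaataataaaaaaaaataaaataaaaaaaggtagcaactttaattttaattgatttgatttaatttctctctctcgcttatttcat
CYCB2;3: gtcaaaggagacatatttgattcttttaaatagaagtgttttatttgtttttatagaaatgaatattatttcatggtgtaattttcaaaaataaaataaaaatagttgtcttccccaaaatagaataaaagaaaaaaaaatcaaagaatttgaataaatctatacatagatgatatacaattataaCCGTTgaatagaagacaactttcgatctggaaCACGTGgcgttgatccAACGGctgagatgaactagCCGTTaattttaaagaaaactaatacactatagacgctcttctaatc
KN: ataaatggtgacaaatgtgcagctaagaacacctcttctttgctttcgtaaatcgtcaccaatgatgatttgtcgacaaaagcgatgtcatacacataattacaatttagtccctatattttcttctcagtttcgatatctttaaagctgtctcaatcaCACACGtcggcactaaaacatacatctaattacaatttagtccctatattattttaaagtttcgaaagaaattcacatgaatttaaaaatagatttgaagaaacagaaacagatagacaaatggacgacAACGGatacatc

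The authors deposited group means of DESeq-normalized reads, from which the whole reads of both libraries of a group were recovered, 7945355 to 16351185 reads per library. Within a group the library with more reads is named the deeper and the other the shallower, because 1 sample of every group is labelled a repeat and the tables do not show which library that is, and values per library below are reads divided by the authors' size factors (normalized reads). For genes whose mean was 1000 or more, libraries of the same group differed with an SD (log2) of 0.244 in wild type on PAC and 0.0889 to 0.162 in the other groups. Separate cultures are not stated for the libraries of a group, so p-values reflect only how far these libraries differ, and that spread may be technical. In hypocotyl samples fewer dividing cells and less RNA per dividing cell cannot be told apart. A gene was called where the authors' DESeq adjusted p was under 0.05, and limma-voom on the recovered reads, which kept 46 of the 48 genes, gave log2 changes with standard errors and a second call at the same threshold. CYCA2;1 and CYCD7;1 fell below its minimum mean of 10 normalized reads, at 4.1 to 14.7 and 0.947 to 6.3 normalized reads per library. The annotated spans of 17 of the 48 genes, introns included, overlap that of a neighbour by 28 to 926 bases. Overlap of exons alone was not measured. Since the counting is not stated to use strand, the values of these genes are less certain.

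By the authors' calls with GA3, 5 of 9 B-type cyclins rose with and without PPZ, and 2 of 5 CDKs rose on PAC and 3 with PPZ. The inhibitor gene SMR1 and the D-type cyclin CYCD2;1 fell in both backgrounds, the 3 CYCD3 genes fell on PAC alone, and the authors called no KRP or E2F gene. In the authors' deposited table for PAC alone 11 of the 48 genes were higher and 6 lower with GA3, 17 called (35.4%), beside 27.2% of all genes tested, 12.9% higher and 14.3% lower. For PAC and PPZ the authors' deposited table called 13 higher and 2 lower, 15 in all (31.2%), beside 13.3% of all genes, 5.97% higher and 7.37% lower. The median log2 of the deposited fold was 0.28 over the 48 genes in both comparisons, beside 0.04 and 0.02 over all genes tested. Of the genes called with GA3, 10 were higher and 2 lower in both backgrounds and none had opposite calls. These 2 GA3 comparisons share no library. A threshold on the fold kept 12 and 11 of the calls at 1.5-fold or more. Limma-voom called 9 higher and 7 lower on PAC, 16 of 46, beside 31.1% of all genes (13.3% higher and 17.8% lower). Without the deeper GA3 library it called 9 on PAC, 6 higher and 3 lower. It called 18 higher and 6 lower on PAC and PPZ, 24 of 46, beside 35.1% (16.4% higher and 18.7% lower). Both GA3 libraries stood above both controls for 26 of the 46 genes on PAC and below them for 11, beside 37.2% and 31.8% of all genes with that mean. On PAC and PPZ they stood above for 26 and below for 8, beside 35.2% and 32.1%.

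In bzr1-1D some B-type cyclins and CYCD1;1 were higher, and the 3 CYCD3 genes were lower. The authors' deposited table called 8 of the 48 genes higher and 5 lower in bzr1-1D than in wild type on PAC and PPZ, 13 in all (27.1%), which was near the 29.6% of all genes called, 14.5% higher and 15% lower. The median log2 of the deposited fold was -0.02 over the 48 genes and 0.02 over all genes. At an adjusted p under 0.01 the count was 8 (5 higher and 3 lower), and with at least a 1.5-fold change it was 7. Limma-voom called 8 higher and 7 lower, 15 of 46, beside 46.8% of all genes (23.3% higher and 23.6% lower). Both bzr1-1D libraries stood above both controls for 9 of the 46 genes and below them for 15, beside 38.6% and 36.6% of all genes with that mean. This comparison and that of GA3 on PAC and PPZ use the same wild-type PAC and PPZ libraries, so their values for a gene are set side by side below without a test of their likeness.

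**Figure D1:**
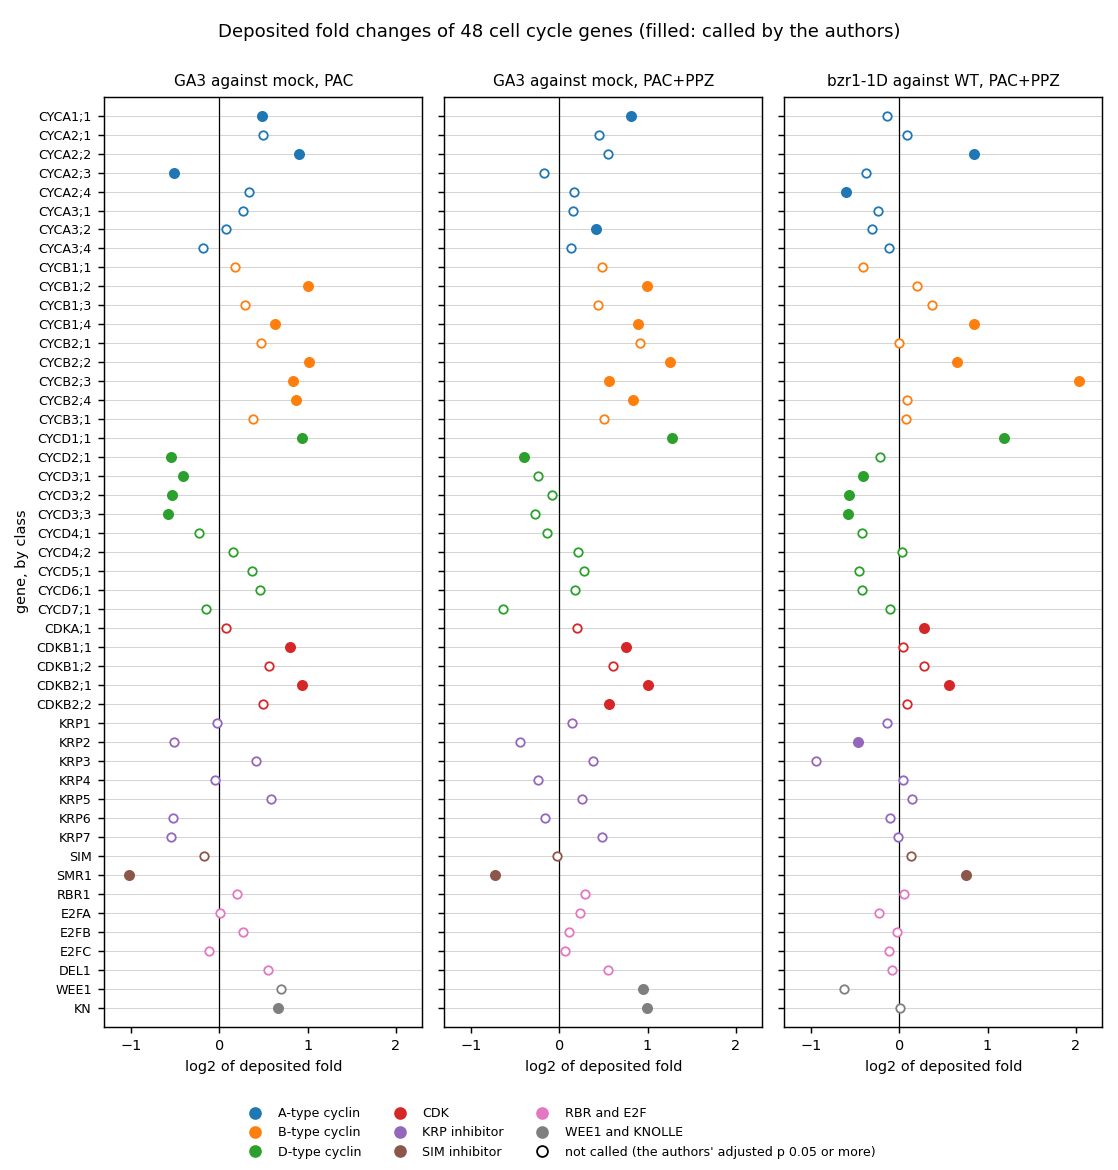
Log2 of the authors' deposited fold (x axis) of the 48 genes (y axis, coloured by class) in 3 panels, for GA3 over mock without PPZ, for GA3 over mock with PPZ, and for the mutant over wild type. Filled points were called by the authors. The B-type cyclins and CDKs lie right of 0 in both GA3 panels, and CYCB2;3 is the farthest right in the bzr1-1D panel.

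B-type cyclins, the partners of mitotic CDKs, rose with GA3 in 5 of 9 cases on PAC, beside 12.9% of all genes. The same 5 rose on PAC and PPZ, beside 5.97% of all genes. Their median log2 fold in the authors' deposited table was 0.63 and 0.83, and no B-type cyclin was lower. Summed over all 9, the class had 923 and 954 normalized reads with GA3 on PAC, against 519.7 and 626.5 on PAC, and 1072 and 1066 with GA3 on PAC and PPZ, against 578 and 654 on PAC and PPZ. In bzr1-1D the sum was 1053 and 1065, much of it from a single gene.

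That gene was CYCB2;3 (AT1G20610). It had 427 and 393 normalized reads in bzr1-1D, against 91.2 and 109 in wild type on PAC and PPZ. Both mutant libraries stood at more than all wild-type libraries, including those with GA3. Its fold of 4.09 in the authors' deposited table (adjusted DESeq p = 7.74e-31) was the largest of the 48 genes in this comparison, at rank 275 of the 3548 genes called higher with a finite fold. The limma-voom log2 change was 2.03 ± 0.13 (SE, 2 libraries per group, adjusted p = 2.62e-07). The same gene reached 159.8 and 180.4 with GA3 on PAC, against 98.2 and 91.8 with mock, and 156 and 139 with GA3 on PAC and PPZ, against 91.2 and 109 with mock. The groups did not overlap in either comparison, and the authors' deposited table gave 1.79-fold (adjusted DESeq p = 0.000364) and 1.48-fold (adjusted DESeq p = 0.0173). The limma-voom call on PAC and PPZ ended without the deeper wild-type PAC and PPZ library (adjusted p = 0.084).

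CYCB1;2 (AT5G06150) rose with GA3 in both backgrounds. It had 166 and 169 normalized reads with GA3 on PAC, against 82.9 and 84.7 on PAC, and 209 and 217 with GA3 on PAC and PPZ, against 92.1 and 121 on PAC and PPZ. The groups were well apart in each case, at 2.00-fold in the authors' deposited table both times (adjusted DESeq p = 1.14e-05 and 1.34e-06), and the limma-voom call held without any 1 library. In bzr1-1D it had 119 and 126 normalized reads, which overlapped with the wild-type values, and it was not called (adjusted DESeq p = 0.531 in the authors' deposited table). Its limma-voom log2 change there was 0.20 ± 0.16.

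CYCB2;2 (AT4G35620) rose in all 3 comparisons. Its normalized reads were 79.9 and 113 with GA3 on PAC, against 42.3 and 52.9 on PAC. Under PAC and PPZ they were 122 and 126 with GA3 and 80.1 and 84.2 in bzr1-1D, against 50.3 and 54.0 in wild type on PAC and PPZ. No library of a raised group overlapped its control, and the folds in the authors' deposited table were 2.03, 2.38 and 1.58 (adjusted DESeq p = 0.000887, 3.83e-06 and 0.028). In limma-voom the PAC call ended without the deeper PAC or the shallower GA3 library (adjusted p up to 0.105) and the bzr1-1D call without the deeper wild-type library (adjusted p = 0.0916).

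CYCB1;4 (AT2G26760) was also higher in all 3. It had 205 and 202 normalized reads with GA3 on PAC, against 108 and 155 on PAC, a wide pair. On PAC and PPZ it had 187 and 183 with GA3 and 164 and 194 in bzr1-1D, against 108 and 91.2 in wild type. The deposited folds of 1.55, 1.86 and 1.79 in the authors' deposited table had adjusted DESeq p = 0.00119, 3.28e-05 and 4.22e-05. In limma-voom the PAC call ended without the deeper PAC library or either GA3 library (adjusted p up to 0.157), whereas both calls on PAC and PPZ held without any 1 library.

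CYCB2;4 (AT1G76310) was called with GA3 in both backgrounds and not in bzr1-1D. It had 123 and 109 normalized reads with GA3 on PAC, against 58.5 and 68.8 on PAC, and 141 and 139 with GA3 on PAC and PPZ, against 75.0 and 82.4 on PAC and PPZ. The authors' deposited table gave 1.82-fold and 1.78-fold (adjusted DESeq p = 0.000841 and 0.00117), and 1.06-fold in bzr1-1D (adjusted DESeq p = 0.911), where it had 79.2 and 88.0. Its limma-voom call on PAC ended without the deeper GA3 library (adjusted p = 0.0885).

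Of the other 4 B-type cyclins none was called in the authors' deposited tables, and their deposited folds with GA3 were 1.13 to 1.89. CYCB2;1 had the largest, with 44.5 and 42.6 normalized reads with GA3 on PAC and PPZ, against 23.0 and 23.0 on PAC and PPZ (adjusted DESeq p = 0.0955 in the authors' deposited table). The mitotic marker CYCB1;1 had 93.7 and 94.6 with GA3, against 58.0 and 77.1 with mock, and both passed in limma-voom (log2 change 0.90 ± 0.24, adjusted p = 0.0112, and 0.48 ± 0.17, adjusted p = 0.0425). Each of these calls ended on leaving out any of 3 of the 4 libraries, with adjusted p up to 0.0609 and 0.334.

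**Figure D2:**
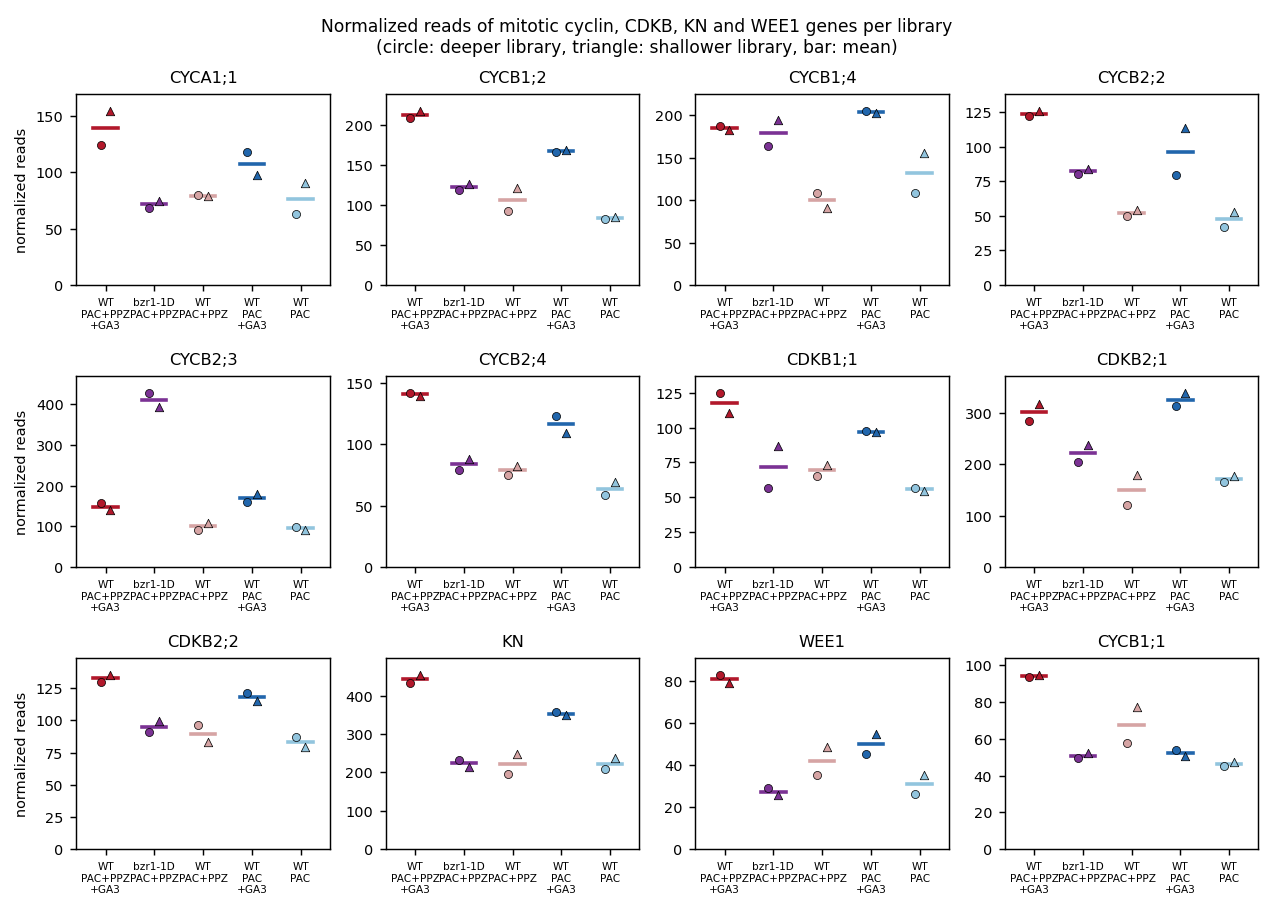
Normalized reads (y axis, linear from 0) per library of 12 mitotic cyclin, CDKB, KN and WEE1 genes in the 5 groups, with a circle for the deeper library, a triangle for the shallower one and a bar for their mean. CYCB2;3 in bzr1-1D, at 427 and 393, stands above every other library of that gene, while KN in bzr1-1D, at 232 and 215, lies among the values of wild type without GA3.

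CDKB kinases, partners of the B-type cyclins, rose with GA3 in 2 of 4 cases on PAC and in 3 with PPZ by the authors' calls. By the authors' deposited tables, 2 of 5 CDKs were higher with GA3 on PAC alone and 3 with PPZ, beside 12.9% and 5.97% of all genes. Their medians were 0.56 and 0.61 for the log2 fold, and none was lower. CDKB2;1 (AT1G76540) had 313 and 339 normalized reads with GA3 on PAC, against 165 and 176 on PAC, and 284 and 318 with GA3 on PAC and PPZ, against 121 and 179 on PAC and PPZ. Its folds of 1.91 and 2.01 in the authors' deposited table (adjusted DESeq p = 2.32e-07 and 1.54e-08) held in limma-voom without any 1 library. It was also higher in bzr1-1D, with 205 and 238, at 1.48-fold (adjusted DESeq p = 0.00249 in the authors' deposited table), a limma-voom call that ended without the deeper wild-type library (log2 change 0.29, adjusted p = 0.231).

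CDKB1;1 (AT3G54180) had 97.3 and 97.0 normalized reads with GA3 on PAC, against 56.7 and 54.7 on PAC, and 125 and 110.2 with GA3 on PAC and PPZ, against 65.6 and 73.5 on PAC and PPZ. Neither pair of groups overlapped, at 1.74-fold and 1.69-fold in the authors' deposited table (adjusted DESeq p = 0.00957 and 0.00717). The limma-voom call on PAC ended without either GA3 library (adjusted p up to 0.114). In bzr1-1D its libraries, at 56.7 and 87.1, lay on both sides of the wild-type pair. CDKB2;2 (AT1G20930) had 130.3 and 135 with GA3 on PAC and PPZ, against 96.3 and 83.3 on PAC and PPZ, and 121 and 115 with GA3 on PAC, against 87.4 and 79.4 on PAC. The folds of 1.48 and 1.41 in the authors' deposited table lay on either side of the threshold (adjusted DESeq p = 0.0465 and 0.098), and the limma-voom call on PAC and PPZ ended without the shallower control library (adjusted p = 0.0723). CDKB1;2 was at 1.47-fold and 1.53-fold with GA3 in the authors' deposited tables and was not called. Limma-voom called it on PAC and PPZ (log2 change 0.61 ± 0.20, adjusted p = 0.0304), but not without the shallower control or the deeper GA3 library (adjusted p up to 0.207).

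The constitutive kinase CDKA;1 (AT3G48750), which serves the whole cycle, moved little. It had 1015 and 1039 normalized reads in bzr1-1D, against 838 and 849.6 in wild type on PAC and PPZ, a 1.22-fold difference called in the authors' deposited table (adjusted DESeq p = 0.0337). The 2 groups did not overlap, yet its limma-voom call ended without either wild-type library (adjusted p up to 0.138). With GA3 it was at 1.05-fold without PPZ and 1.15-fold with it and was not called in the authors' deposited tables. Limma-voom called the change with PPZ (log2 change 0.19 ± 0.06, adjusted p = 0.0252), but not without either control or the shallower GA3 library (adjusted p up to 0.179).

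KN (AT1G08560), the syntaxin that fuses vesicles at the cell plate, rose with GA3 and was not called in bzr1-1D. It had 357 and 349.8 normalized reads with GA3 on PAC, against 209 and 236 on PAC, and 434 and 453 with GA3 on PAC and PPZ, against 196 and 248 on PAC and PPZ. The folds were 1.59 and 2.00 in the authors' deposited table (adjusted DESeq p = 4.99e-05 and 1.51e-10), and the limma-voom calls held without any 1 library. The bzr1-1D libraries, at 232 and 215, lay inside the range of wild type on PAC and PPZ, at 1.01-fold in the authors' deposited table (adjusted DESeq p = 1). The limma-voom log2 change there was 0.01 ± 0.13. The annotated span of KN overlaps that of NPQ1 on the opposite strand by 464 bases. NPQ1 moved the other way with GA3, at 0.698-fold on PAC alone and 0.754-fold with PPZ in the authors' deposited tables. In bzr1-1D NPQ1 was also lower, at 0.592-fold (adjusted DESeq p = 1.71e-07 in the authors' deposited table). The part of NPQ1 reads in the KN values was not tested.

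WEE1 (AT1G02970), a kinase that holds CDKs inactive after DNA damage, had 82.6 and 79.0 normalized reads with GA3 on PAC and PPZ, against 35.0 and 48.7 on PAC and PPZ. That 1.93-fold rise was called in the authors' deposited table (adjusted DESeq p = 0.00774). On PAC it had 45.0 and 54.7 with GA3, against 26.1 and 35.3 without, again with no overlap but at 1.62-fold not called (adjusted DESeq p = 0.0989 in the authors' deposited table). In bzr1-1D it had 28.8 and 25.6 normalized reads and was at 0.65-fold, also not called (adjusted DESeq p = 0.158 in the authors' deposited table).

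Among the 8 A-type cyclins the calls went in both directions. On PAC 2 were higher and 1 lower with GA3 in the authors' deposited tables. On PAC and PPZ 2 were higher, and in bzr1-1D 1 was higher and 1 lower. In that order 37.5%, 25% and 25% of the class were called, beside 27.2%, 13.3% and 29.6% of all genes. CYCA1;1 (AT1G44110), a cyclin of mitotic cells, rose in both GA3 comparisons. It had 118 and 97.0 normalized reads with GA3 on PAC, against 63.0 and 90.0 on PAC, and 124 and 154 with GA3 on PAC and PPZ, against 79.3 and 78.8 on PAC and PPZ. The folds were 1.40 and 1.76 in the authors' deposited table (adjusted DESeq p = 0.0416 and 0.00221), and the smaller did not pass in limma-voom (adjusted p = 0.0812). In bzr1-1D it had 68.4 and 74.8 and was not called.

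CYCA2;2 (AT5G11300) had 82.6 and 50.6 normalized reads with GA3 on PAC, against 36.0 and 35.3 on PAC, and 49.5 and 58.7 in bzr1-1D, against 24.7 and 35.4 in wild type on PAC and PPZ. The libraries did not overlap, at 1.87-fold and 1.80-fold in the authors' deposited table (adjusted DESeq p = 0.0129 and 0.0247). In limma-voom the GA3 effect missed the threshold (adjusted p = 0.0504) and the bzr1-1D call ended without the deeper wild-type library (adjusted p = 0.173). CYCA3;2 (AT1G47210), an S phase cyclin, had the highest level per kilobase of exon in its class. It had 707 and 846 with GA3 on PAC and PPZ, against 561 and 602 on PAC and PPZ, a 1.33-fold rise in the authors' deposited table (adjusted DESeq p = 0.0166) that held in limma-voom without any 1 library.

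By the authors' calls CYCA2;3 fell with GA3 on PAC and CYCA2;4 in bzr1-1D. The first (AT1G15570), which restrains endoreduplication, had 178 and 215 normalized reads with GA3 on PAC, against 313 and 249 on PAC, and was 1.43-fold lower by the authors' deposited table (adjusted DESeq p = 0.00499). Its limma-voom call ended without the deeper PAC or the deeper GA3 library (adjusted p up to 0.229). In bzr1-1D it had 219 and 196, against 263 and 274 in wild type on PAC and PPZ, lower in limma-voom alone (log2 change -0.38 ± 0.11, adjusted p = 0.0112), a call that ended without the shallower library of either group (adjusted p up to 0.085). The second (AT1G80370) had 58.5 and 58.7 in bzr1-1D, against 90.4 and 86.8 in wild type on PAC and PPZ, and was 1.51-fold lower (adjusted DESeq p = 0.0477 in the authors' deposited table). That limma-voom call ended without the deeper wild-type library (adjusted p = 0.0667). In bzr1-1D CYCA3;2 was at 0.807-fold without a call in the authors' deposited table and was lower in limma-voom (log2 change -0.32 ± 0.08, adjusted p = 0.00869), a call that ended without the shallower wild-type library (adjusted p = 0.137). The other 3 A-type cyclins were not called in any of the authors' deposited tables. Of those averaging 10 or more normalized reads, CYCA3;1 had the largest fold, 1.21 with GA3 on PAC in the authors' deposited table (adjusted DESeq p = 0.654), with overlapping libraries at 59.7 and 39.6, against 46.8 and 35.3 with mock.

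D-type cyclins were called in both directions. With GA3 on PAC 1 of 10 was higher and 4 were lower in the authors' deposited tables. With GA3 on PAC and PPZ 1 was higher and 1 lower, and in bzr1-1D 1 was higher and 3 were lower. In these 3 comparisons 50%, 20% and 40% of the class were called, beside 27.2%, 13.3% and 29.6% of all genes. The 1 higher gene was CYCD1;1 (AT1G70210) in all 3. It had 1059 and 947 normalized reads with GA3 on PAC, against 466 and 581 on PAC. On PAC and PPZ it had 701 and 705 with GA3 and 632 and 689 in bzr1-1D, against 295 and 285 in wild type. Every raised library stood above its controls by a wide margin, at 1.92, 2.42 and 2.28-fold in the authors' deposited table (adjusted DESeq p = 4.03e-14, 1.26e-21 and 2.04e-19). In limma-voom the log2 changes were 0.93 ± 0.13, 1.26 ± 0.07 and 1.17 ± 0.09 (SE, 2 libraries per group), and all 3 calls held without any 1 library. Its adjusted p was the lowest of the 48 genes with GA3 in both backgrounds in the authors' deposited tables.

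The 3 CYCD3 genes, which prolong division in young organs, were lower with GA3 on PAC and lower in bzr1-1D. CYCD3;1 (AT4G34160) had 416 and 421 normalized reads with GA3 on PAC, against 562 and 551 on PAC, and 518 and 479 in bzr1-1D, against 671 and 653 in wild type on PAC and PPZ. CYCD3;2 (AT5G67260) had 949 and 1107 with GA3 on PAC, against 1578 and 1391 on PAC, and 908 and 753 in bzr1-1D, against 1256 and 1206 in wild type on PAC and PPZ. CYCD3;3 (AT3G50070) had 278 and 261 with GA3 on PAC, against 380.1 and 429 on PAC, and 469.8 and 355 in bzr1-1D, against 604 and 629 in wild type on PAC and PPZ. The treated and mutant libraries lay below their controls in each case. In this order the genes were 1.33, 1.44 and 1.5-fold lower with GA3 on PAC in the authors' deposited table (adjusted DESeq p = 0.0067, 2.42e-06 and 0.00084). They were 1.33, 1.48 and 1.49-fold lower in bzr1-1D in the authors' deposited table (adjusted DESeq p = 0.00329, 1.97e-06 and 4.15e-05), and the limma-voom calls in the mutant held without any 1 library.

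On PAC and PPZ the CYCD3 genes had smaller differences with GA3, at 1.18, 1.06 and 1.21-fold lower, none of them called in the authors' deposited table (adjusted DESeq p = 0.218, 0.801 and 0.158). Limma-voom called the first and the third lower (log2 change -0.25 ± 0.07, adjusted p = 0.0116, and -0.28 ± 0.07, adjusted p = 0.00484). The call for the first ended without the deeper control or the shallower GA3 library (adjusted p up to 0.114). On PAC its call ended without either GA3 library (adjusted p up to 0.14), and that of the second without the deeper GA3 library (adjusted p = 0.131).

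CYCD2;1 (AT2G22490) was lower with GA3 in both backgrounds. It had 338 and 327 normalized reads with GA3 on PAC, against 447 and 521 on PAC, and 485 and 452 with GA3 on PAC and PPZ, against 635 and 599.8 on PAC and PPZ. The groups did not overlap, at 1.46-fold and 1.32-fold lower by the authors' deposited table (adjusted DESeq p = 0.00153 and 0.0148). The limma-voom call on PAC ended without either GA3 library (adjusted p up to 0.053). In bzr1-1D it had 589.5 and 475 and was not called. The other 5 D-type cyclins were not called in the authors' deposited tables, and among those averaging 10 or more normalized reads the largest difference was that of CYCD6;1 with GA3 on PAC, 35.8 and 36.9 normalized reads, against 27.9 and 24.7 on PAC with mock. Its annotated span overlaps that of AT4G03260 by 847 bases.

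Of the 7 KRP inhibitors none was called with GA3 in the authors' deposited tables, beside 27.2% of all genes on PAC and 13.3% with PPZ. In bzr1-1D 1 of the 7 was lower (14.3%), beside 15% of all genes. KRP2 (AT3G50630), which restrains CDKA kinases, had 401 and 401 normalized reads in bzr1-1D, against 546 and 563 in wild type on PAC and PPZ, 1.38-fold lower by the authors' deposited table (adjusted DESeq p = 0.0255). It had 376 and 327 with GA3 on PAC, against 429 and 574 on PAC, and 373 and 444 with GA3 on PAC and PPZ, against 546 and 563 on PAC and PPZ. These libraries also lay below their controls, at 1.43-fold and 1.36-fold lower without a call in the authors' deposited table (adjusted DESeq p = 0.0685 and 0.0575). Limma-voom called both (log2 change -0.50 ± 0.15, adjusted p = 0.0277, and -0.47 ± 0.08, adjusted p = 0.000612), the first ending without the shallower GA3 library (adjusted p = 0.158). KRP4 was also lower with GA3 on PAC and PPZ in limma-voom alone (log2 change -0.25 ± 0.08, adjusted p = 0.0229), with adjusted p up to 0.152 on leaving out a library. The largest fold of the family was that of KRP3 in bzr1-1D, with 17.1 and 15.1, against 23.0 and 39.0 in wild type, which was not called (adjusted DESeq p = 0.0601 in the authors' deposited table).

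The SIAMESE-type inhibitor SMR1 (AT3G10525), known to promote endoreduplication in giant sepal cells, went one way with GA3 and the other in the mutant. It had 313 and 303 normalized reads with GA3 on PAC, against 609.8 and 641 on PAC, and 239 and 245 with GA3 on PAC and PPZ, against 399.8 and 401 on PAC and PPZ. In bzr1-1D it had 579 and 771, against the same 399.8 and 401. No groups overlapped. It was 2.03-fold and 1.65-fold lower with GA3 and 1.68-fold higher in bzr1-1D in the authors' deposited table (adjusted DESeq p = 8.62e-06, 0.00355 and 0.000618). The limma-voom log2 changes of -1.05 ± 0.11, -0.74 ± 0.08 and 0.73 ± 0.12 (SE, 2 libraries per group) all held without any 1 library. It was the only one of the 48 genes called in opposite directions by GA3 in both backgrounds and by bzr1-1D. Its annotated span overlaps that of AT3G10527 by 375 bases.

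SIM (AT5G04470), the founding member of that family, was at 873 to 1302 normalized reads over all 10 libraries and was not called in any deposited comparison. Its annotated span overlaps that of AT5G04475 on the opposite strand by 338 bases. The part of AT5G04475 reads in the SIM values was not tested. Per kilobase of exon SIM had the highest level of the 48 genes, 1102 to 1644 normalized reads per kilobase over the 10 libraries. CYCD3;2 followed with 448 to 938 and CDKA;1 with 559 to 767, which overlap, and SMR1 had 289 to 933. The B-type cyclins stood at 7.05 to 212 normalized reads per kilobase. These levels set libraries of different deposited tables side by side on the authors' size factors.

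**Figure D3:**
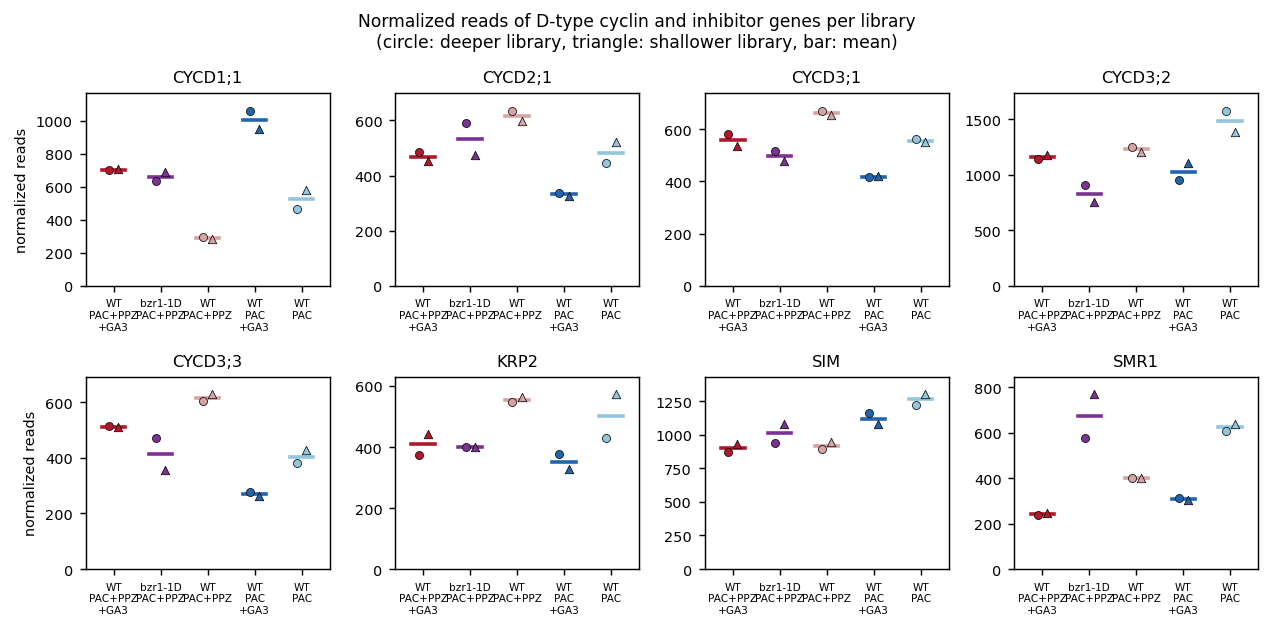
Normalized reads (y axis, linear from 0) per library of 5 D-type cyclin and 3 inhibitor genes in the 5 groups, with a circle for the deeper library, a triangle for the shallower one and a bar for their mean. SMR1 is at 239 to 313 in both groups with GA3 and at 579 and 771 in bzr1-1D, while CYCD1;1 is at 295 and 285 in wild type on PAC and PPZ, below every other library.

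RBR1 and the E2F genes were not called in any of the authors' deposited tables. RBR1 (AT3G12280) had 849 and 875 normalized reads with GA3 on PAC and PPZ, against 729 and 684 on PAC and PPZ, at 1.22-fold in the authors' deposited table (adjusted DESeq p = 0.0827). It passed in limma-voom there (log2 change 0.27 ± 0.06, adjusted p = 0.00381) and in no other of these 3 comparisons. The largest fold of the class was that of DEL1, an atypical E2F that represses entry into endoreduplication, with 85.8 and 70.7 with GA3 on PAC and PPZ, against 67.3 and 39.0 with mock. It was not called, at 1.47-fold (adjusted DESeq p = 0.14 in the authors' deposited table), and its annotated span overlaps that of ALDH10A9 by 307 bases.

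The GA3 effects with and without PPZ were also compared with each other, since a call in one background alone does not show a difference. When limma-voom tested whether the 2 effects differ, none of the 46 genes kept was called, beside 3.33% of all genes (1.71% higher and 1.62% lower with PPZ), and 5 had an unadjusted p under 0.05. The lowest adjusted p was that of CYCD3;2, where GA3 changed the log2 level by -0.10 ± 0.05 on PAC and PPZ and by -0.56 ± 0.12 on PAC, a difference of 0.45 ± 0.13 (adjusted p = 0.0882). KRP7 had the widest difference, 1.09 ± 0.34 (adjusted p = 0.116), with 46.1 and 47.8 normalized reads with GA3 on PAC and PPZ, against 33.2 and 33.7 with mock, and 22.03 and 32.8 with GA3 on PAC, against 39.6 and 40.6 with mock. Without the shallower wild-type PAC library the test called 2 genes, and with scaling by library totals it called 1.

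**Figure D4:**
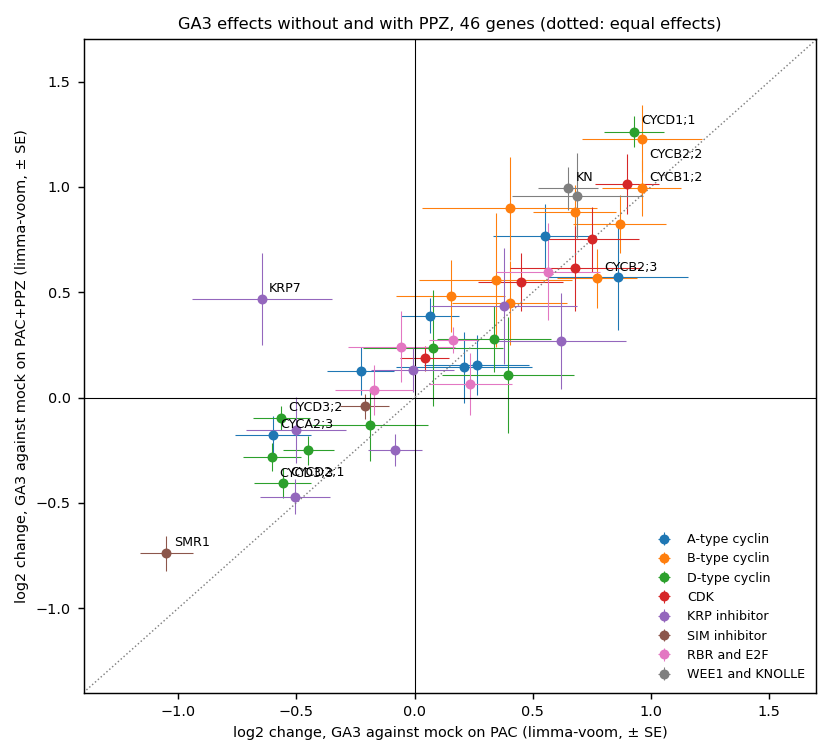
Limma-voom log2 change with GA3 on PAC (x axis) and on PAC and PPZ (y axis), each with its standard error, for the 46 genes kept, coloured by class, with a dotted line where both effects are equal. SMR1 lies lowest at -1.05 and -0.74, CYCD1;1 and CYCB2;2 lie highest, and KRP7 is the gene farthest from the line.

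PPZ itself was compared with no PPZ in wild type, on the recovered reads alone, because no deposited table holds that comparison. With mock 3 of 46 genes were higher and 5 lower with PPZ in limma-voom, 8 in all, beside 24.1% of all genes tested (11.8% higher and 12.2% lower). CYCD1;1 had the largest change among the called genes, -0.82 ± 0.13 on the log2 scale (SE, 2 libraries per group, adjusted p = 0.00197), with 295 and 285 normalized reads on PAC and PPZ, against 466 and 581 on PAC. SMR1 fell by 0.64 ± 0.10 (adjusted p = 0.00166), to 399.8 and 401 on PAC and PPZ, against 609.8 and 641 on PAC. SIM changed by -0.46 ± 0.09 and the KRP inhibitor KRP4 by -0.45 ± 0.10. CYCA2;4 (0.77, adjusted p = 0.0201) and CYCD2;1 (0.37, adjusted p = 0.0346) were also higher in limma-voom. CDKA;1 was lower (-0.36, adjusted p = 0.0222). The calls of CYCA2;4, CYCD2;1 and CDKA;1 ended without either PPZ library. Without 1 library their log2 changes were 0.71 to 0.86, 0.23 to 0.47 and -0.45 to -0.29. CYCD3;3 rose by 0.63 ± 0.11 (adjusted p = 0.00292), with 604 and 629 on PAC and PPZ, against 380.1 and 429 on PAC. The calls of CYCD1;1, CYCD3;3 and SMR1 held without any 1 library, whereas those of SIM and KRP4 ended without either PPZ library (adjusted p up to 0.147 and 0.199). The number called was 3 without either of those libraries and 13 without the shallower PAC library, and scaling by library totals gave 4 higher and 4 lower.

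With GA3 present 16 of 46 genes were higher and 6 lower with PPZ in limma-voom, 22 in all, beside 51.9% of all genes tested (24.5% higher and 27.4% lower). CYCD1;1 was again lower and CYCD3;3 higher, by -0.56 ± 0.08 and 0.88 ± 0.09 on the log2 scale (adjusted p = 7.15e-05 and 6.32e-06). CYCB2;1 rose by 1.34 ± 0.28 and CYCB1;1 by 0.79 ± 0.18 (adjusted p = 0.00192 and 0.00288), and CYCB1;1 had 93.7 and 94.6 normalized reads on PAC and PPZ, against 54.2 and 50.6 on PAC. KRP4 fell by 0.68 ± 0.08 (adjusted p = 2.93e-05), to 374 and 368 on PAC and PPZ, against 599.5 and 553 on PAC. Its annotated span overlaps that of CB5-B by 926 bases. These 5 calls held without any 1 library, but the number called was 13 without the deeper PAC library with GA3. CDKA;1 was again lower, by -0.28 on the log2 scale (limma-voom adjusted p = 0.00394), and by -0.32 to -0.23 without 1 library. Scaling by library totals moved the median log2 change of all genes to 0.17 and gave 26 higher and 3 lower. The split of directions in this comparison thus depends on the scaling.

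**Figure D5:**
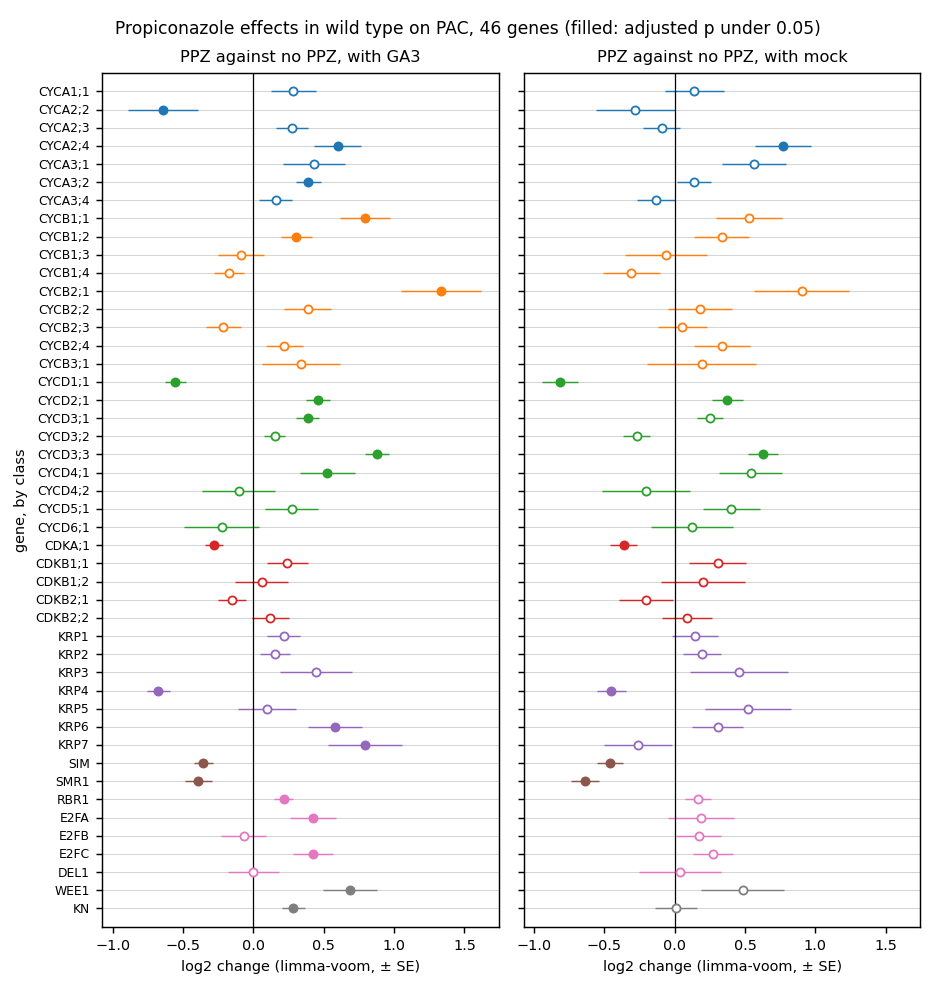
Limma-voom log2 change (x axis, with standard error) of 46 genes (y axis, coloured by class) between PPZ and no PPZ in wild type on PAC, with GA3 on the left and with mock on the right. Filled points have an adjusted p under 0.05. CYCD1;1, CDKA;1, KRP4, SIM and SMR1 lie left of 0 in both panels while CYCD3;3 lies right.

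Other genes of the cell cycle, 58 in 4 lists, were read beside the 48. By the authors' deposited tables, 20 were higher and 1 lower with GA3 on PAC, beside 12.9% and 14.3% of all genes tested. With GA3 on PAC and PPZ 17 were higher and none lower, beside 5.97% and 7.37% of all genes. In bzr1-1D 4 were higher and 7 lower, beside 14.5% and 15% of all genes. Of 21 DNA replication genes 9 were higher and 1 lower, 9 higher, and 7 lower in these comparisons, in that order. Of 14 mitosis and cytokinesis genes 8, 6 and 1 were higher and none was lower. The kinase gene AUR1, which acts at the mitotic spindle, had 162 and 108 normalized reads with GA3 on PAC, against 73.0 and 65.3 on PAC (1.95-fold, adjusted DESeq p = 0.00175 in the authors' deposited table). CDC20.1, an activator of the anaphase-promoting complex, was 1.84-fold higher, and PLE, a microtubule bundling protein of the phragmoplast, was 1.82-fold higher there in the authors' deposited table.

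On PAC and PPZ the largest rises among the genes called with GA3 in these lists were those of CKS2, a CDK subunit, HIK, a cytokinetic kinesin, and TPX2, a spindle assembly factor, at 2.06, 1.89 and 1.82-fold in the authors' deposited table. CKS2 was also higher in bzr1-1D, with 161 and 184 normalized reads, against 101 and 108 in wild type on PAC and PPZ (1.65-fold, adjusted DESeq p = 0.000417 in the authors' deposited table). The replication genes CDC45 and CDT1B stood at 0.623-fold and 0.645-fold in bzr1-1D in the authors' deposited table (adjusted DESeq p = 0.0107 and 0.0368). Summed over the 21 replication genes the level was 4208 and 4166 normalized reads in bzr1-1D, against 5135 and 5378 in wild type on PAC and PPZ, while it was 6998 and 7078 with GA3 on PAC and PPZ.

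Markers of other cell populations that hypocotyl samples can hold were read beside these results. Of 7 stomatal lineage genes 4 (SPCH, MUTE, TMM and EPF2) were lower with GA3 on PAC in the authors' deposited table, beside 14.3% of all genes tested. None of the 7 was called by the authors in the other comparisons. Their summed level was 408 to 452 normalized reads with GA3 on PAC, against 515 to 639.5 on PAC. It was 308 to 309 with GA3 on PAC and PPZ and 199 to 283 in bzr1-1D, against 316 to 366 in wild type on PAC and PPZ. None of these groups overlapped its control, though with GA3 on PAC and PPZ the sums lay close. Of all single genes averaging 10 or more normalized reads, 31.8%, 32.1% and 36.6% also stood wholly below their controls in these 3 comparisons. In wild type with mock the stomatal sum of 316 to 366 with PPZ lay below the 515 to 639.5 without PPZ. Of 12 shoot apex genes KNAT1 and CLV1 were higher and CUC3 and ANT lower in bzr1-1D in the authors' deposited table. These 4 of 12 (33.3%) were near the 29.6% of all genes called there. The 12 genes summed to 3028 to 3116 there, against 2134 to 2276 in wild type on PAC and PPZ. Much of that difference lay in KNAT1 and CLV1, with means of 969 and 1550 in bzr1-1D, against 366 and 1230 in wild type. The median log2 of the deposited fold over the list was -0.18. The defining gene WUS was at or near 0 in every group (means up to 1.04). CLV1 was lower with GA3 in both backgrounds, the single shoot apex call there. Of all genes 14.3% were lower with GA3 on PAC and 7.37% on PAC and PPZ. Root genes were summed at 22.9 to 34.2 without PPZ, 143 to 154 in wild type with PPZ and 55.8 in bzr1-1D. In bzr1-1D EXPA7, EXPA18 and COBL9 were lower, 3 of 8 root genes (37.5%), beside 15% of all genes. Of 5 lateral root founder genes LBD29 (20% of the list) was higher with GA3 on PAC, beside 12.9% of all genes. LBD29 and GATA23 (40% of the list) were higher in bzr1-1D in the authors' deposited table, beside 14.5% of all genes. The part of these populations in the cyclin and kinase differences was not tested, and the label of hypocotyl itself was not checked with markers of its own.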

How the data were processed

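The authors aligned barcoded TruSeq libraries with TopHat and analysed them with DESeq, per the submitters' processing notes. No version, genome build, annotation or read counter is stated there. What the authors deposited is 3 tables with group means of normalized reads (signal), a fold (ratio) and a p-value with its adjusted form for 33518 genes, and 5 rows without a gene were left out (reads matching several loci alone were 8.61% to 10.7% of the table's total). Main calls are the authors' DESeq adjusted p under 0.05.

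From the deposited means, which are sums of whole reads over 2 size factors, the reads of both libraries were recovered. Per group this held for 99.57% to 99.96% of genes with a mean above 0. The unresolved genes, 9 in wild type on PAC to 103 in bzr1-1D, had means of 10046 or more. The reads per library given above leave them out. The recovery and the fits were tested on simulated data. limma 3.58.1 in R 4.3.3 (voom) was run on these reads with median-of-ratios size factors, for genes averaging 10 or more normalized reads, with Benjamini-Hochberg adjustment over all genes. It replaces a count model, because the reads are inferred rather than deposited. PPZ comparisons were scaled within that fit, as a joint scaling of the tables is not stated, and they share groups with the GA3 comparisons. Levels per kilobase use the union of RefSeq exons (TAIR10.1), which also gave the symbols by locus, for 48 of 48 genes. Other scalings, filters, weights and fits, and each library left out, were tried. All members called by the authors are named with values, as are, in each class, the uncalled member of largest fold among those averaging 10 or more normalized reads and the 3 called genes of largest change per comparison in the other cell cycle lists. CYCB1;1, KRP4, KRP7 and RBR1 were also named, after their values were seen. Members and lists were chosen with earlier results of these data known.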

Additional observations from a re-analysis of the deposited data

How the results depend on the processing

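With limma-voom in place of the authors' DESeq calls, GA3 on PAC and PPZ had 24 calls among the 48 genes, against 15. In bzr1-1D an adjusted p under 0.01 left 8 calls and a fold of at least 1.5 left 7, against 13. The difference of the GA3 effects had 1 call with library totals and 0 otherwise, apart from 2 without the shallower PAC library. Leaving out each library in turn gave 9 to 22 calls for GA3 on PAC, 20 to 21 for GA3 on PAC and PPZ, 12 to 20 for bzr1-1D, 3 to 13 for PPZ with mock, 13 to 20 for PPZ with GA3 and 0 to 2 for the difference. The 9 calls for GA3 on PAC were those without the deeper GA3 library. The causes were not tested. Of 435 values of single genes under other scalings, filters, samples and weights, 417 kept direction and call, 13 lost the call, 5 gained it and 0 reversed. Of 348 values without 1 library, 82 lost the call and 0 reversed. No paired analysis was possible because the deposited group means carry no replicate numbers and the recovered libraries cannot be tied to the sample labelled a repeat in every group, so any effect of that shared repeat set was not tested. With 2 libraries per group, small changes of genes at low counts are not detectable.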
